A study of Bos taurus with 6 samples.

Results

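The proteasome genes described here are all genes whose platform symbol starts with PSMA, PSMB, PSMC, PSMD, PSME, PSMF or PSMG followed by a digit. They were 47 of the 15229 named genes on the array, carried by 79 probes, and 45 of them (73 probes) passed the filter on dim probes. Of the 2 that did not pass, PSMA8 is the germ cell form of a core alpha subunit and PSMD3 a cap subunit; PSMD13 and PSME3 were not analysed here. The letters also take PSMC3IP, a meiotic recombination factor that is no part of the proteasome, which is given apart.

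The study compared superstimulated cows (group 1) with non-superstimulated cows (group 4), 3 animals per group, all multiparous and of beef breed. The arrays' fields name gonadotropins as the ovarian stimulation hormone for both groups, and name neither the tissue nor the dose or time. Total RNA of dissected, snap-frozen samples was amplified in 2 rounds with T7 polymerase, so that very small samples could be used, and labelled with Cy3 and Cy5. Cow 1 of each group shared array 1 and its dye swap, array 4, and likewise cows 2 and 3, which gives 3 cow pairs on 6 arrays. The replicates are animals, and since a dye swap repeats the same extracts, the 3 cow pairs limit the precision.

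Background: the proteasome degrades proteins that have been tagged with ubiquitin. Its 20S core is a barrel of stacked rings, in which alpha subunits form the gated ends and beta subunits the inner rings with the proteolytic sites; the 19S cap recognises and unfolds substrates with its ring of ATPases and its non-ATPase subunits. Immune beta subunits, induced by interferon gamma, replace the catalytic ones in immune cells and change the peptides made for antigen presentation. Other activators can take the place of the cap, and dedicated chaperones assemble core and cap. Genes of core and cap are transcribed together in many cell types, under NFE2L1 when proteasome activity falls short.

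Median spot intensity was 151.6 to 299.2 in red and 161.3 to 283.4 in green. The share of probes above the negative control spots was 47.3% to 63.2% in red and 65.4% to 71.2% in green. Of 12 granulosa cell markers 11 were measured, FOXL2 being the exception, and their summed level was 65740 to 100800 in superstimulated and 59310 to 98020 in non-superstimulated cows on the linear intensity scale. All 12 theca and stroma markers were measured, with sums of 13910 to 31480 in superstimulated and 4117 to 17050 in non-superstimulated cows. On this scale the brightest markers weigh most, and the high superstimulated sums rested largely on LUM. Of the markers of other cells, 7 of 10 for endothelium were measured, 7 of 12 for leukocytes, 5 of 5 for red cells, 6 of 9 for oocytes and 3 of 6 for epithelium. Of these, 1 endothelial, 2 leukocyte and 1 oocyte marker exceeded the controls on all arrays in both channels.

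Ratios are log2 of superstimulated over non-superstimulated intensity, averaged over an array and its dye swap, with the dyes taken from each array's own fields, which put group 1 in Cy5 on arrays 1 to 3. The example in the series' design text has the dyes the other way round, which would turn every sign below and exchange the group names of the cows in each pair. The direction is therefore not settled by the descriptions. The sizes, the pairs and the members of each pattern do not depend on it.

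Across the 3 pairs no proteasome gene passed the test between the groups. The mean of the pair ratios was set against 0 with limma and Benjamini-Hochberg adjustment over 12334 genes. The count past an adjusted p of 0.05 was 0 (background 0%), and the lowest adjusted p was 0.995. Of all genes, 444 (3.6%) had an unadjusted p under 0.05, of which 279 (2.26%) were lower, among them 1 of the 45 proteasome genes, PSMB3. The ratio had the same sign in all 3 pairs for 4 of 45 proteasome genes, against 23% of all genes: PSMB3 below 0, and PSMC1, PSMD14 and PSME4 above 0. Cow levels of the 2 groups did not overlap for PSMB3 and PSME4, where the background was 5.89%. In bulk RNA, fewer cells of a type and less RNA per cell cannot be told apart.

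The pairs themselves differed, and most core and cap subunits shared a direction within pairs 2 and 3. Over the 14 measured core subunits the median ratio was -0.031 in pair 1, -0.38 in pair 2 and 1.06 in pair 3. Over the 15 measured cap subunits it was 0.0089, -0.22 and 0.65 in the same order of pairs, while all genes had -0.0067, -0.018 and -0.012. The dye swaps gave similar core medians in pair 3, 1.33 on array 3 and 1.08 on array 6, and in pair 2, -0.48 on array 2 and -0.36 on array 5. Pair 1 lay near 0, with -0.13 on array 1 and 0.015 on array 4. The class medians of the mean ratio, 0.32 for core alpha, 0.14 for core beta, 0.23 for cap ATPases and 0.14 for other cap genes, rested on pair 3: without it they were -0.22, -0.22, -0.090 and -0.18.

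**Figure D1:**
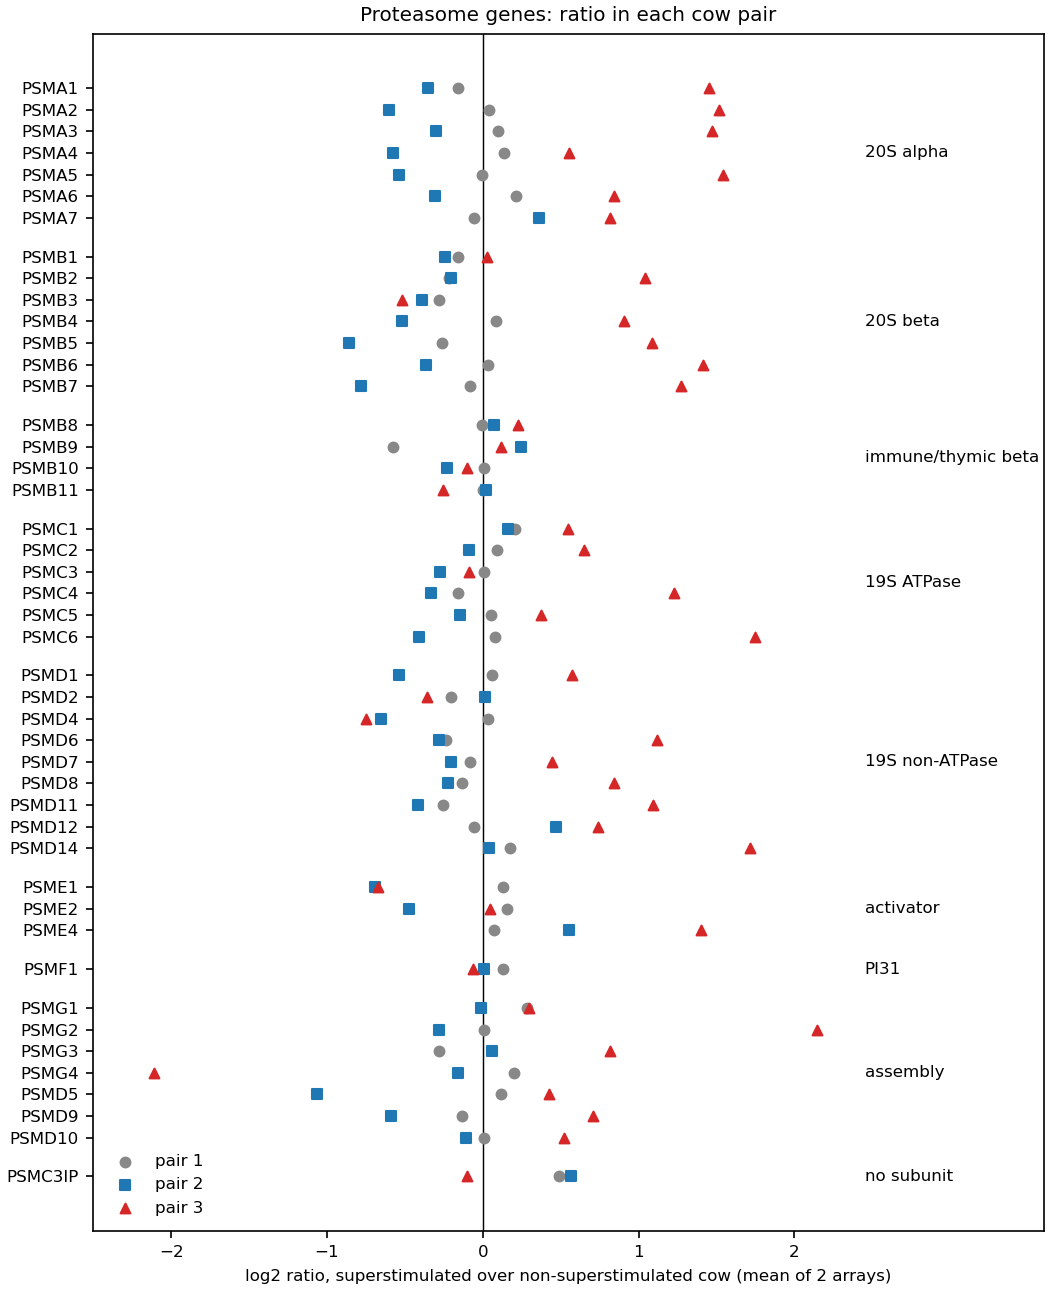
Log2 ratio of superstimulated over non-superstimulated cow for each of the 45 measured proteasome genes (rows, grouped by role), with a circle for pair 1, a square for pair 2 and a triangle for pair 3, each the mean of an array and its dye swap. Most core and cap genes have their triangle far to the right, between 0.37 and 1.75, and their square left of 0. The immune subunits stay within 0.58 of 0 in every pair, but the probes of PSMB8, PSMB9 and PSMB11 are dim, which pulls their ratios toward 0.

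Each pair was then tested in a limma fit of all 6 arrays with a term per pair and a dye term. The error in this fit comes from repeating the same extracts with the dyes exchanged, so it measures the arrays and not the animals. In pair 3, 30 of 45 proteasome genes were higher at an adjusted p under 0.05 (background 27.3%, and 34.4% of the 7305 genes above the controls on all arrays in both channels) and 5 were lower (background 19.6%, 28.7% among those brighter genes), namely PSMB3, PSMD2, PSMD4, PSME1 and PSMG4. In pair 2, 18 were lower (21.8%, 30.5%) and 4 were higher (13.8%, 18.8%), namely PSMA7, PSMD12, PSME4 and PSMC3IP. In pair 1, PSMC3IP was the 1 higher gene (3.83%, 5.5%) and PSMB9 the 1 lower gene (6.92%, 9.32%). The ratio differed between pairs for 32 of 45 genes, where 51.1% of all genes and 70.2% of the brighter genes did so. The dye term passed for 10 of 45 genes (32.4%). In the authors' deposited values the counts were smaller, 18 of 45 for genes that differ between pairs (background 17.3%) and 18 higher in pair 3 (background 9.86%).

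At a size of 2-fold, 15 of 45 proteasome genes were higher in pair 3 (background 8.41%) and 1, PSMG4, was lower (5.39%). The 15 were PSMA1, PSMA2, PSMA3, PSMA5, PSMB2, PSMB5, PSMB6, PSMB7, PSMC4, PSMC6, PSMD6, PSMD11, PSMD14, PSME4 and PSMG2. They took in 8 of 14 core and 5 of 15 cap genes, 1 of 3 activators and 1 of 7 assembly chaperones.

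Levels per cow, obtained from the separate channels after normalisation between arrays, show which animal stood apart. The lowest of the 6 cows was non-superstimulated cow 3 for 30 of 45 proteasome genes (background 27.9%, 30.2% among the brighter genes), for 11 of 14 core and 12 of 15 cap genes. For 17 of these 30 the gap to the next cow was larger than the whole range of the other 5 cows. For 9 it was at least 1 on the log2 scale. Of all 12334 genes, 3446 were lowest in that cow, and of these 861 had the first kind of gap and 382 the second. As shares of all genes these are 6.98% and 3.1%, to be set against 17 and 9 of 45. That cow stood apart over all genes too: it was most often the lowest and also most often the highest of the 6 cows (3865 of 12334 genes). Of the proteasome genes it was the highest for 9 of 45. The median deviation of that cow from the mean of 6 cows was -0.97 over core and -0.64 over cap genes, and 0.0043 over all genes. The next most distant value for core genes was that of non-superstimulated cow 2, at 0.52. That cow held the highest level for 6 of 14 core genes, and for 1519 of all 12334 genes. The count of 30 genes lowest in non-superstimulated cow 3 was 27 on the swapped slide alone and 32 on the forward slide alone. With the dyes of the design text the low animal would be superstimulated cow 3.

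**Figure D2:**
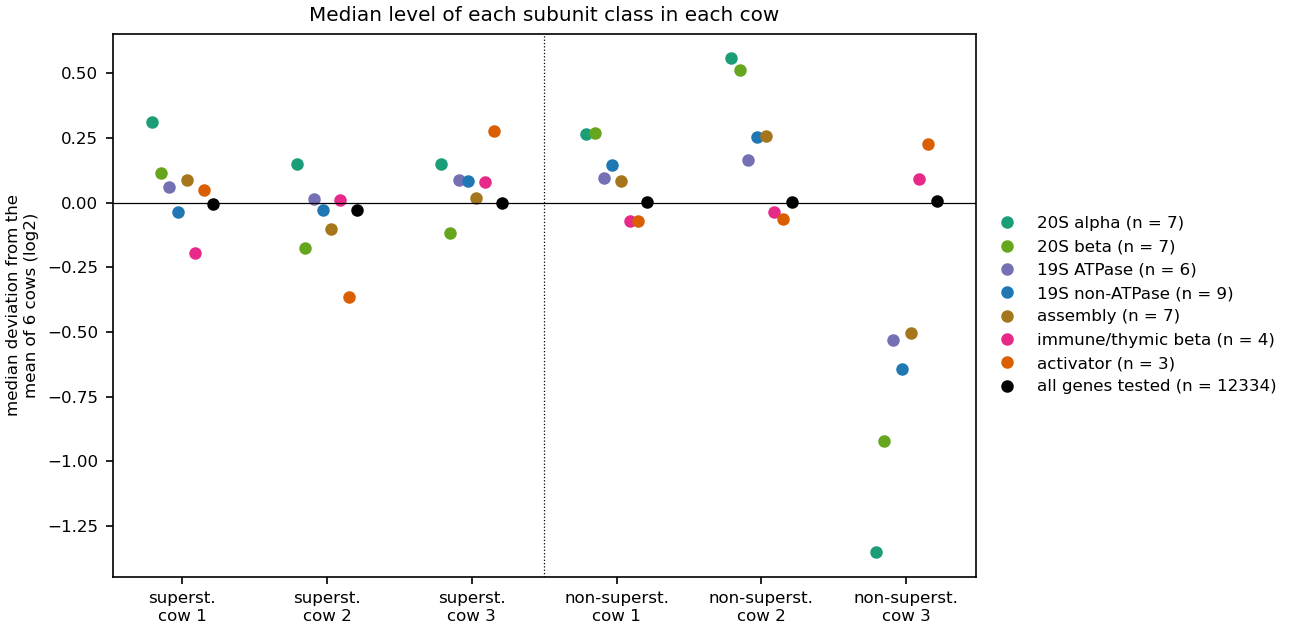
Median deviation (log2) of each subunit class from the mean of 6 cows, for the 3 superstimulated cows on the left and the 3 non-superstimulated cows on the right, with a black point for all 12334 genes. Core alpha genes lie at -1.35 and core beta genes at -0.92 in non-superstimulated cow 3, cap ATPases at -0.53, other cap genes at -0.64 and assembly chaperones at -0.50, while immune subunits and activators lie above 0 in that cow. Of the immune class, the probes of PSMB8, PSMB9 and PSMB11 are dim, which pulls differences between cows toward 0.

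Core alpha subunits moved as a block in pair 3. The 7 measured genes had ratios of 0.55 to 1.54 there, with a median of 1.45, and 6 of 7 passed against the swap error as higher (background 27.3%). PSMA4, with 1.34 on array 3 and -0.23 on array 6, did not. In pair 2 their median was -0.35, and PSMA7 was the 1 gene above 0. PSMA3, a subunit of the alpha ring, had levels of 11.85, 11.67 and 11.23 log2 intensity in superstimulated cows, against 11.75, 11.97 and 9.75 in non-superstimulated cows. The last of these stood 1.47 below the next cow, and the other 5 cows lay within 0.75 of each other. The ratios were 0.098, -0.30 and 1.47, with a mean of 0.42 ± 0.93 (SD, n = 3 pairs) and an adjusted p of 0.995 by limma.

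PSMA2, another alpha ring subunit, had a pair 3 ratio above 0 with each of its 6 probes. Its brightest probe had 14.30, 13.98 and 14.15 log2 intensity in superstimulated and 14.25, 14.58 and 12.63 in non-superstimulated cows. The pair 3 ratio was 1.52 for that probe and 0.30 to 1.60 over the 6 probes, the 2 smallest values belonging to the 2 dimmest. PSMA7, also of the alpha ring, had 12.12, 12.42 and 12.57 in superstimulated and 12.17, 12.06 and 11.75 in non-superstimulated cows. Its ratios of -0.056, 0.36 and 0.82 averaged 0.37 ± 0.44 (SD, n = 3 pairs), and it was higher in 5 of 6 arrays.

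Of the core beta subunits, PSMB5, PSMB6 and PSMB7 carry the proteolytic sites, with chymotrypsin-like, caspase-like and trypsin-like activity. PSMB5 had 12.12, 11.40 and 11.59 log2 intensity in superstimulated cows, against 12.38, 12.26 and 10.51 in non-superstimulated cows. Its ratio of -0.26, -0.86 and 1.09 went lower in pair 2 (adjusted p = 0.000371, limma against the swap error) and higher in pair 3 (adjusted p = 0.000103). The mean over the pairs was -0.012 ± 1.00 (SD, n = 3), with pairs 1 and 2 below 0 and pair 3 above.

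PSMB6 had 13.33, 13.15 and 13.70 log2 intensity in superstimulated and 13.29, 13.51 and 12.29 in non-superstimulated cows. Its ratios were 0.033, -0.36 and 1.41. PSMB7 had 11.89, 11.52 and 12.12 in superstimulated and 11.97, 12.30 and 10.85 in non-superstimulated cows, with ratios of -0.082, -0.78 and 1.27. All 3 catalytic genes were thus lowest in non-superstimulated cow 3, below the mean of 6 cows in superstimulated cow 2, and not past the threshold in pair 1. The 3 probes of PSMB7 had pair 3 ratios of 0.75 to 1.27, and the 2 probes of PSMB6 had 0.43 and 1.41, the dimmer probe the smaller.

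PSMB3, a core beta subunit with no proteolytic site of its own, went against the block. It had 11.06, 11.03 and 11.09 log2 intensity in superstimulated cows, against 11.34, 11.42 and 11.60 in non-superstimulated cows. The groups did not overlap, and every superstimulated cow was lower than every non-superstimulated cow. The ratios were -0.28, -0.39 and -0.52, with a mean of -0.40 ± 0.12 (SD, n = 3 pairs), an unadjusted p of 0.0200 and an adjusted p of 0.995 (limma). Array 4 alone of 6 had a ratio above 0 (0.075), and the dye term of -0.27 passed its test (adjusted p = 0.0121). The mean was -0.67 on the forward slide and -0.12 on the swapped slide.

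PSMB1, likewise without a proteolytic site, did not follow the block with its brightest probe. Its levels were 11.76 to 12.05 in superstimulated and 11.79 to 12.21 in non-superstimulated cows, with ratios of -0.16, -0.24 and 0.029. For this probe the arrays of pair 3 disagreed, at 0.63 on array 3 and -0.57 on array 6. A second, dimmer PSMB1 probe had ratios of 0.090, -0.13 and 0.26, with 0.070 on array 3 and 0.45 on array 6. The rest of the core beta genes, PSMB2 and PSMB4, had 1.04 and 0.90 in pair 3.

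The immune beta subunits and the thymic one did not share the pattern of the core. Their median ratio was -0.0010, 0.046 and 0.0088 in pairs 1, 2 and 3, and 0 of 4 were higher or lower in pair 3 against the swap error (backgrounds as above), nor was non-superstimulated cow 3 the lowest for any. PSMB8, the immune counterpart of PSMB5, was not well above background: its probe exceeded the controls on 2 of 6 arrays in superstimulated and on 1 of 6 in non-superstimulated channels, and no fold is given. PSMB11, which takes the same position in thymic epithelium, had levels of 7.22 to 7.29 log2 intensity in superstimulated and 7.27 to 7.48 in non-superstimulated cows. Both probes, and that of PSMB9, lay in the dim range, where the offset used in background correction pulls ratios toward 0. The contrast with the core can therefore be read mainly from PSMB10.

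PSMB10, the immune counterpart of PSMB7, was well measured. It had 9.61, 9.56 and 10.60 log2 intensity in superstimulated cows, against 9.60, 9.78 and 10.70 in non-superstimulated cows. Both cows of pair 3 were the high ones, about alike, so that the ratios were 0.0080, -0.23 and -0.10. A second PSMB10 probe had -0.075, -0.25 and 0.063.

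PSMB9, the immune counterpart of PSMB6, had 7.39, 7.97 and 7.53 log2 intensity in superstimulated and 7.96, 7.72 and 7.41 in non-superstimulated cows. Its ratio was lower in pair 1, at -0.58 (adjusted p = 0.0135, limma against the swap error), with 0.24 and 0.12 in pairs 2 and 3. TAP1, which carries peptides into the endoplasmic reticulum for antigen presentation, lies next to PSMB9 on bovine chromosome 23 in the RefSeq annotation with 0 protein-coding genes between. TAP1 had -0.72, 0.49 and 0.073, so that both genes were below 0 in pair 1 and above 0 in pair 2. TAP1 exceeded the controls on 3 of 6 arrays in superstimulated and 5 of 6 in non-superstimulated channels. Among other measured antigen processing and interferon genes, TAPBP (-0.0034, 0.29 and -0.68) and NLRC5 (-0.034, 0.16 and 0.15) also had these signs. TAP2 (0.32, -0.31 and 0.68), B2M (-0.47, -0.70 and 0.73), ERAP1 (0.23, -0.11 and -0.75) and the rest did not. A link between PSMB9 and these genes was not tested.

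Set against the catalytic subunits they replace, the immune subunits differed in opposite directions in pairs 2 and 3. The ratio of PSMB9 minus that of PSMB6 was -0.61, 0.61 and -1.30, with a mean of -0.43 ± 0.96 (SD, n = 3 pairs; exact two-sided sign-flip permutation p = 0.5). That of PSMB10 minus PSMB7 was 0.090, 0.56 and -1.37, with a mean of -0.24 ± 1.01 (exact p = 1). With 3 pairs the smallest p this test can give is 0.25. In these differences the immune member contributed at most 0.58 and the catalytic one up to 1.41. The probe of PSMB9 was dim, with a mean log2 intensity of 7.68 against 13.2 for PSMB6. The offset therefore pulls the PSMB9 ratio toward 0, and the sizes of these 2 genes are not on an equal footing.

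**Figure D3:**
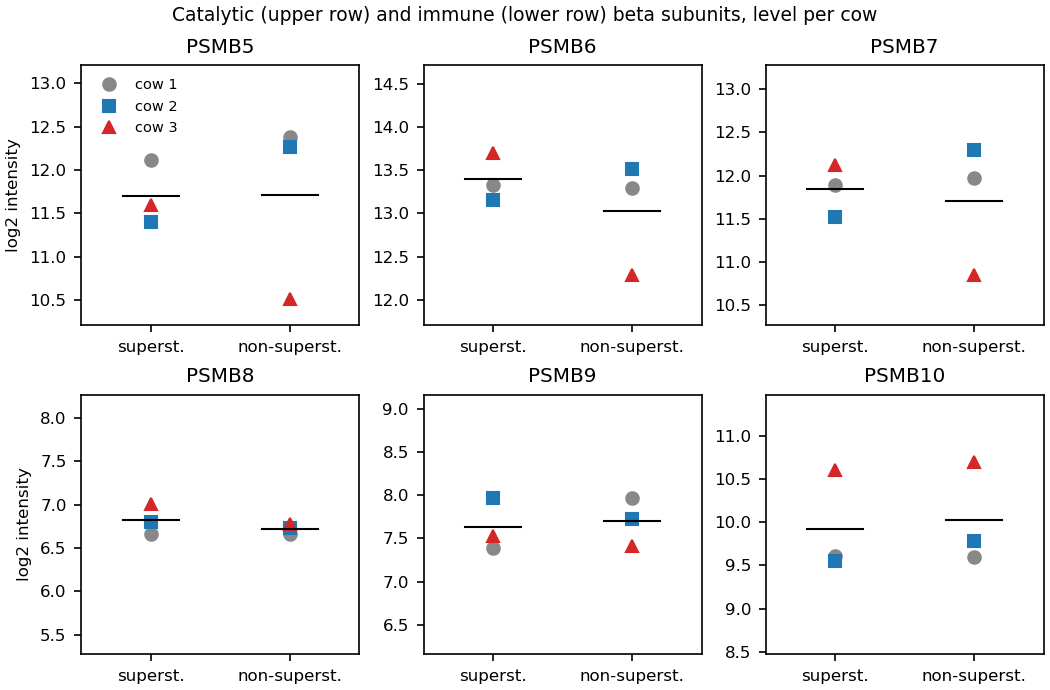
Log2 intensity of the catalytic beta genes PSMB5, PSMB6 and PSMB7 (upper row) and of PSMB8, PSMB9 and PSMB10 (lower row) in each of the 3 superstimulated cows (left in each panel) and the 3 non-superstimulated cows (right), with the group mean as a bar; every panel spans 3 log2 units. The triangle of non-superstimulated cow 3 is the lowest point in each upper panel, at 10.51, 12.29 and 10.85, whereas in PSMB10 both cows of pair 3 are highest; PSMB8 was not well above background.

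In the cap, the 6 ATPases, which unfold substrates and open the core, had a median ratio of 0.065, -0.21 and 0.60 in the 3 pairs, and 5 of 6 were higher in pair 3 against the swap error (background 27.3%). PSMC6 had 12.61, 12.27 and 12.53 log2 intensity in superstimulated cows, against 12.53, 12.68 and 10.79 in non-superstimulated cows. Non-superstimulated cow 3 lay 1.49 below the next cow, and the ratios were 0.077, -0.41 and 1.75. A second and much dimmer PSMC6 probe had -0.38 in pair 3, which passed as lower against the swap error. PSMC2 had 12.41, 11.60 and 11.78 in superstimulated and 12.32, 11.69 and 11.13 in non-superstimulated cows, and its pair 3 ratio of 0.65 was the mean of 1.31 on array 3 and -0.012 on array 6.

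PSMC1 was above 0 in every array. It had 7.46, 7.69 and 7.61 log2 intensity in superstimulated and 7.25, 7.53 and 7.07 in non-superstimulated cows, and the groups overlapped. Its mean ratio was 0.31 ± 0.21 (SD, n = 3 pairs, adjusted p = 0.995 by limma), in a dim range. PSMC3 was the ATPase that did not follow, with 11.05, 11.18 and 11.38 in superstimulated and 11.04, 11.46 and 11.47 in non-superstimulated cows. Its 2 probes disagreed: the brighter had 0.0089, -0.28 and -0.086, and the dimmer 0.98, -0.055 and 1.09.

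The 9 measured non-ATPase cap subunits had medians of -0.079, -0.22 and 0.74, with 7 higher (background 27.3%) and 2 lower (19.6%) in pair 3. PSMD14, the deubiquitinase that removes ubiquitin chains from substrates, had 13.15, 13.07 and 12.60 log2 intensity in superstimulated cows, against 12.97, 13.03 and 10.88 in non-superstimulated cows. It showed the widest gap between the lowest cow and the next among the 45 genes, 1.72, while the other 5 cows lay within 0.55. Its ratios were 0.17, 0.041 and 1.72, a mean of 0.64 ± 0.93 (SD, n = 3 pairs). PSMD12, a lid subunit, had 11.41, 11.89 and 11.23 in superstimulated and 11.46, 11.42 and 10.49 in non-superstimulated cows, with ratios of -0.056, 0.47 and 0.74; it was higher in pairs 2 and 3 against the swap error (adjusted p = 0.0178 and 0.00157, limma).

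PSMD4, a ubiquitin receptor of the cap, and PSMD2, a scaffold of the cap base, were the 2 that were lower in pair 3. PSMD4 had 9.26, 9.07 and 9.58 log2 intensity in superstimulated and 9.23, 9.72 and 10.32 in non-superstimulated cows. Here non-superstimulated cow 3 was the highest of all 6, and the ratios were 0.036, -0.65 and -0.75. Its second, dimmer probe had 0.081 in pair 3. PSMD2 had -0.20, 0.011 and -0.36 with its brightest probe and 0.23 and -0.068 in pair 3 with the 2 others. ADRM1, another ubiquitin receptor of the cap and no PSM gene by name, had 0.42, -0.35 and -0.32.

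The activators differed from each other. PSME1 and PSME2 together form the PA28 ring, which is induced by interferon gamma and opens the core. PSME1 had 9.52, 9.11 and 9.17 log2 intensity in superstimulated cows, against 9.39, 9.80 and 9.84 in non-superstimulated cows; its ratio of 0.13 in pair 1 was followed by -0.69 and -0.67 in pairs 2 and 3, both lower against the swap error (adjusted p = 0.000844 and 0.000851, limma). PSME2 had 10.49, 9.82 and 10.64 in superstimulated and 10.33, 10.30 and 10.59 in non-superstimulated cows, with ratios of 0.16, -0.48 and 0.049. PSME2 was lower in pair 2 as well (adjusted p = 0.0309, limma), and in pair 3 its arrays gave 0.56 and -0.46. The difference between the partners was not tested.

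PSME4, which encodes PA200, a nuclear activator linked to histone degradation, had 12.84, 12.98 and 13.70 log2 intensity in superstimulated and 12.76, 12.43 and 12.29 in non-superstimulated cows. The groups did not overlap and all 6 arrays were above 0. The ratios of 0.073, 0.55 and 1.40 gave a mean of 0.68 ± 0.67 (SD, n = 3 pairs) and an adjusted p of 0.995 by limma, and the 2 higher pairs passed against the swap error (adjusted p = 0.00355 and 2.82e-05). A second probe had -0.29, 0.52 and 1.49. PSME4 was highest in superstimulated cow 3, and non-superstimulated cow 3 lay 0.14 below the next cow. PSMF1, which encodes PI31, an inhibitor of the core in vitro, had 7.46 to 7.49 in superstimulated and 7.37 to 7.54 in non-superstimulated cows, with ratios of 0.13, 0.0099 and -0.063, in a dim range.

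Among the 7 assembly chaperones, 6 were higher (background 27.3%) and 1 lower (19.6%) in pair 3, and the extremes of the whole family lay here. PSMG1 and PSMG2 form a dimer that starts the alpha ring. PSMG2 had 12.19, 12.08 and 12.97 log2 intensity in superstimulated cows, against 12.18, 12.36 and 10.82 in non-superstimulated cows. In pair 3 the superstimulated cow was the highest and the non-superstimulated cow the lowest of all 6, a ratio of 2.14 or 4.42-fold, which ranked 177 of 12334 genes. A second probe had 2.04. PSMG1 had 13.40, 12.92 and 13.04 in superstimulated and 13.11, 12.93 and 12.74 in non-superstimulated cows, with ratios of 0.29, -0.014 and 0.30, and its 4 probes had 0.19 to 0.46 in pair 3. The dimer partners thus had ratios of very different size in pair 3.

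PSMG3 and PSMG4 form the other chaperone dimer. PSMG4 had 10.83, 11.07 and 11.15 log2 intensity in superstimulated and 10.62, 11.23 and 13.26 in non-superstimulated cows. Non-superstimulated cow 3 stood more than 2 above every other cow, and the pair 3 ratio was -2.11, or 4.32-fold lower, with -2.12 and -2.10 on its 2 arrays. The second, dimmer probe had -0.65. Its partner PSMG3 had 8.01, 8.96 and 8.56 in superstimulated and 8.29, 8.90 and 7.75 in non-superstimulated cows, a pair 3 ratio of 0.81. Of the chaperones of the cap base, PSMD5 had 0.12, -1.06 and 0.42, PSMD9 -0.13, -0.59 and 0.70, and PSMD10 0.0095, -0.11 and 0.52. PSMC3IP, which is no subunit, had 0.49, 0.57 and -0.098.

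Different probes of a gene allow a check of these values. Of 18 genes with several measured probes, 6 had probes of opposite sign in pair 3. In PSMC4, PSMC6 and PSMD4 the opposing probe was the dimmer one and lay within 0.38 of 0, and in PSMC3 the dimmer probe had the larger ratio. The dim PSMC6 probe still passed as lower against the swap error (adjusted p = 0.0321, limma over probes). The bright PSMC6 probe passed as higher (adjusted p = 0.000137), so the 2 were called in opposite directions. PSMA6, PSMA7, PSMB4, PSME4 and PSMG1 kept the sign of pair 3 in all their measured probes, as did PSMA2, PSMB1, PSMB6, PSMB7, PSMF1, PSMG2 and PSMG4. In the mean of the pairs 6 genes had probes of opposite sign, namely PSMB1, PSMC3, PSMC4, PSMC6, PSMD2 and PSMF1. Across the 45 genes, which are not independent replicates, an array and its swap correlated at 0.022 in pair 1, 0.74 in pair 2 and 0.79 in pair 3.

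**Figure D4:**
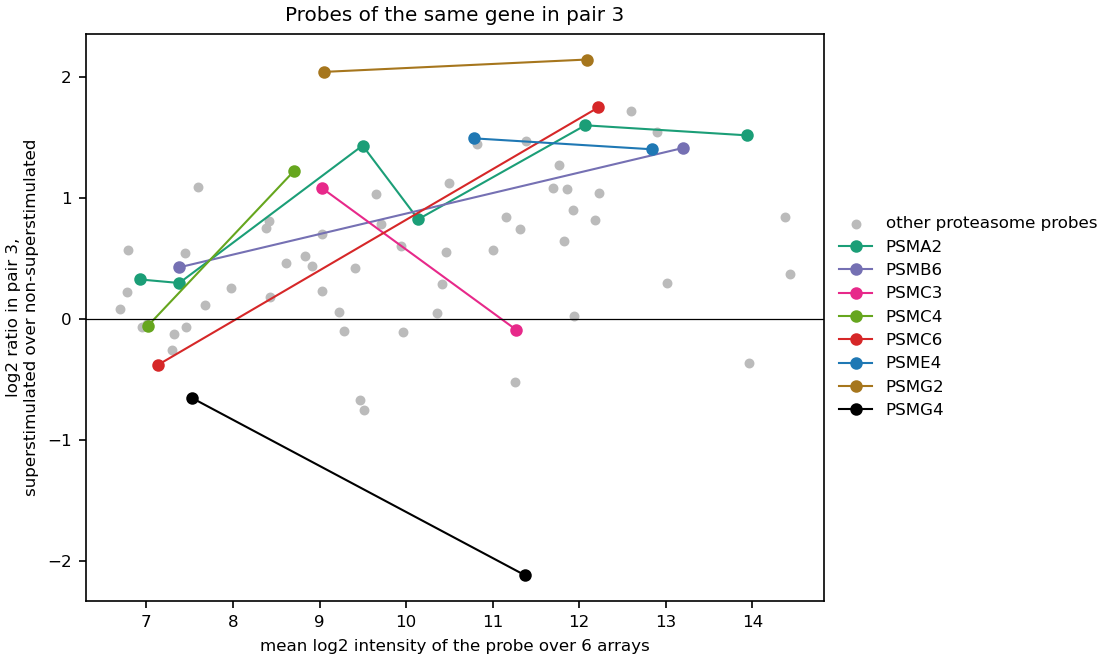
Pair 3 log2 ratio of superstimulated over non-superstimulated cow (vertical) against the mean log2 intensity over 6 arrays (horizontal) for each of the 73 measured proteasome probes, with lines that join the probes of a gene for 8 genes. The 2 PSMG2 probes lie at 2.14 and 2.04 and the 2 PSME4 probes at 1.40 and 1.49, whereas the dim PSMC6 probe lies at -0.38 and the bright one at 1.75.

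Other genes of proteasome assembly and regulation were measured for 16 of 18, with medians of -0.0039, -0.16 and 0.39. In pair 3, 9 of 16 were higher (background 27.3%) and 3 lower (19.6%). Over the 3 pairs 0 had an unadjusted p under 0.05 (limma). POMP, which matures the core, had 11.48, 11.82 and 10.96 log2 intensity in superstimulated and 11.37, 11.15 and 9.78 in non-superstimulated cows, and ratios of 0.11, 0.67 and 1.18. SEM1, a small cap subunit without a PSM symbol here, had -0.0087, -0.22 and 1.42. NFE2L2, a transcription factor of the oxidative stress response, had -0.10, 0.98 and 1.18, while NFE2L1, which induces proteasome genes, had 0.011, -0.66 and -0.021. ZFAND5 and ZFAND2A, which bind the proteasome, had 2.82 and 2.26 in pair 2. In that pair 13 of 14 core and 11 of 15 cap genes lay below 0, as did 6600 of all 12334 genes.

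Of 16 ubiquitin and shuttle genes 10 were measured, with medians of 0.010, -0.18 and 0.26. In pair 3, 5 of 10 were higher (background 27.3%) and 2 lower (19.6%). FAF1, an adaptor of VCP, had 0.12, -1.19 and -0.63, UBA6, a ubiquitin-activating enzyme, 0.012, -0.27 and -0.34, UFD1, a cofactor of VCP, 0.031, -0.19 and -0.22, and UBQLN2, a shuttle to the proteasome, 0.34, -0.20 and 0.66. VCP itself, the segregase that extracts ubiquitinated proteins, was lower in pair 1 (-0.85) and higher in pair 3 (0.56). Of 12 antigen processing and interferon genes 10 were measured, with medians of -0.019, -0.083 and 0.032. In pair 3, 3 of 10 were higher (background 27.3%) and 2 lower (19.6%), near the shares over all genes. IRF2, an interferon regulatory factor, had -0.17, -0.22 and -0.13, LAP3, an aminopeptidase, 0.19, 0.071 and 1.00, BLMH, another peptidase, 0.0042, -0.43 and -0.14, and NLRC5, which activates class I genes, -0.034, 0.16 and 0.15. In both lists 0 genes had an unadjusted p under 0.05 over the 3 pairs, and VCP was chosen after its values were seen. The other pathway genes given were those of smallest p in their lists. Exceptions, besides VCP, are SEM1, NFE2L1, ADRM1, TAP1, TAP2, TAPBP, B2M and ERAP1.

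Some markers differed between the cows of pair 3 as well. PTPRC, a marker of all leukocytes, had a pair 3 ratio of -1.02, with 11.32, 11.27 and 11.51 log2 intensity in superstimulated and 11.10, 11.26 and 12.53 in non-superstimulated cows. The summed level of the 7 measured leukocyte markers was 3265 to 3703 in superstimulated and 2936 to 6664 in non-superstimulated cows; the other 6 markers had pair 3 ratios of -0.15 (LAPTM5) to 0.32 (AIF1, adjusted p = 0.0438, limma), and CD14, CSF1R, LYZ, CD52 and CD79A did not pass the filter. CYP19A1, the aromatase of granulosa cells, had 12.37, 10.54 and 8.38 in superstimulated and 12.40, 11.90 and 7.87 in non-superstimulated cows, so both cows of pair 3 were low. Of the granulosa markers 4 of 11 were higher and 4 lower in pair 3, and of the theca and stroma markers 5 of 12 were higher and 2 lower. Over all genes 27.3% were higher and 19.6% lower. The summed level of the theca and stroma markers was 13910 to 31480 in superstimulated and 4117 to 17050 in non-superstimulated cows. LUM, at 14.64 and 14.31 log2 intensity, was the largest term in superstimulated cows 2 and 3. The median ratio of the 12 markers was 0.098, 0.11 and 0.12 in pairs 1, 2 and 3.

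Some single markers had large ratios in pair 3; those given here were chosen for their size after their values were seen. LUM, a proteoglycan of connective tissue, had 11.80, 14.64 and 14.31 log2 intensity in superstimulated and 11.85, 10.62 and 9.93 in non-superstimulated cows, a pair 3 ratio of 4.38. The collagens COL3A1 and COL1A2 had pair 3 ratios of 3.10 and 1.66, and HSD3B1, an enzyme of progesterone synthesis, 1.84. GATM, an enzyme of creatine synthesis from the granulosa list, had 7.41, 6.89 and 9.55 in superstimulated and 7.90, 7.57 and 13.23 in non-superstimulated cows, a pair 3 ratio of -3.67. SLC35G1 of that list had -2.46, INHA, the inhibin alpha subunit, 1.42, and PDGFRA, a receptor of stromal cells, -1.11. The part of these differences in the proteasome values was not tested.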

How the data were processed

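The authors deposited 6 scanner files of raw foreground and background intensity for Cy3 and Cy5, per the file headers, and a value table of log2 ratios. The normalisation of that deposited log2 table is not stated; its columns correlated at 0.739 to 0.868 with the red over green ratios of their own arrays and at most 0.335 with others, so it runs red over green, with medians of -0.0348 to -0.00433.

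Of 45220 spots, 8 without a name and 42 marked to be ignored were left out. Intensities were corrected with normexp (offset 50), normalised by loess within arrays with control spots at weight 0 (limma 3.58.1, R 4.3.3), and turned to superstimulated over non-superstimulated. A probe passed (31957 of 43753) if, on 3 or more of 6 arrays, its foreground in either channel was above that of 95% of the 756 negative controls; a gene is its brightest passing probe. Symbols came from the platform annotation (21790 of 43794 probes have 1 symbol, 0 several, 22004 none here) and were updated through RefSeq; all 47 proteasome symbols matched. Array and swap were averaged to 1 value per cow pair (n = 3). The main test was limma against 0; swap-error tests used all 6 arrays. Cow levels are separate channels after Aquantile normalisation, which leaves ratios unchanged. Slide and dye orientation coincide (arrays 1 to 3 on slide 1, their swaps on slide 2) and cannot be told apart; each slide alone is given as an alternative.

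The cow numbers pair the samples through the shared arrays, so the fit is paired. Over levels, cows with the same number correlated at 0.177, 0.040 and 0.272 in their deviations from the group means, and cows with different numbers at -0.259 to 0.230. The genes given in full are a list of 15 with known roles, the smallest p-values in each class and the widest ranges between pairs; a further criterion, probes of opposite sign at least 1 log2 apart, named 0 genes. Genes, lists and tests were chosen with earlier results of these data known.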

Additional observations from a re-analysis of the deposited data

How the results depend on the processing

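Without pair 3 the class medians of the mean ratio were -0.22 for core alpha, -0.22 for core beta, -0.090 for cap ATPases, -0.18 for other cap genes and -0.11 for assembly chaperones, against 0.32, 0.14, 0.23, 0.14 and 0.14 with it; the leave-one-out ranges were -0.22 to 0.64, -0.22 to 0.41, -0.090 to 0.37, -0.18 to 0.34 and -0.11 to 0.27. The immune and thymic median of -0.075 was 0.078 on the swapped slide, and leaving out a pair gave -0.087 to 0.016. The core beta median was 0.0027 in the deposited values, 0.039 on the forward slide and 0.050 with the median of probes; that of other cap genes was 0.010 on the forward slide, 0.089 with median centring, and 0.26 both on the swapped slide and in the deposited values. PSMF1 had 0.16 on the forward slide and -0.11 on the swapped slide.

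The count of genes past an adjusted p of 0.05 by limma was 1 in 6 arrays with the pair as a random replicate block (RAB15, no proteasome gene; adjusted p 0.0276), and 0 in the other settings, also with a dye term added to that block (0.555), a fit chosen after seeing the data. The paired count of proteasome genes at an unadjusted p under 0.05 was 1; it was 2 without the replicate block (3 cows against 3 cows), 3 with the random block, 2 with that block and a dye term, 4 on the forward slide, 0 on the swapped slide, 0 with an eBayes trend, 0 with the stricter filter, 2 in the deposited values and, leaving out a pair, 0 to 2. Proteasome genes that differ between pairs numbered 18 in the deposited values, as did those higher in pair 3. PSMB10 minus PSMB7 was 0.029 on the swapped slide, and leaving out a pair gave -0.64 to 0.32.

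Of 373 values of 25 named genes under other settings 351 kept their direction, 22 turned it and 0 passed the threshold. Many of the 351 could not have turned. The fits without the replicate block, with the random block (with or without a dye term) and with an eBayes trend change the test but not the mean ratio. The filter settings also left the ratios of the named genes they kept unchanged. The count is therefore no measure of stability. PSMB5 had 0.010 with median centring and 0.12 on the swapped slide; PSMC3 had 0.28 with the median of its probes, 0.11 in the deposited values and 0.14 on the swapped slide. On the forward slide PSMB1 had 0.039 and PSME2 0.21; on the swapped slide PSMB10 had 0.17, PSMC2 -0.10 and PSMF1 -0.11. Without a pair, PSMB5 ranged from -0.56 to 0.41, PSMB9 from -0.23 to 0.18, PSMF1 from -0.027 to 0.069, PSME2 from -0.21 to 0.10, PSMA2 from -0.28 to 0.78, PSMA3 from -0.10 to 0.79, PSMB6 from -0.17 to 0.72, PSMB7 from -0.43 to 0.59, PSMC6 from -0.17 to 0.91, PSMG2 from -0.14 to 1.08 and PSMG4 from -1.13 to 0.023. The cause was not tested. Median centring instead of loess gave core medians of -0.61 in pair 2 and 1.46 in pair 3 and cap medians of -0.11, -0.46 and 1.03 in pairs 1 to 3; the deposited values gave -0.69 for core genes in pair 2 and 0.083 for cap genes in pair 1. The offset pulls ratios of dim probes such as PSMB8, PSMB9, PSMB11, PSMC1 and PSMF1 toward 0, and 3 pairs limit every comparison between the groups.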
